A study of Neurospora crassa with 24 samples.

Results

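In germinating conidia of Neurospora crassa, 105 genes fell by at least 1.5 on the log2 scale between 15 and 120 min after inoculation on both of the media tested, once the median level at each time was subtracted. These are 1.21% of the 8676 genes that could be followed in both media, out of 9730 genes listed. The genes were chosen on that fall, so the change from 15 to 120 min is given below as a description without a test. RNA was sequenced from conidia spread on cellophane over Bird medium (BM), a synthetic medium rich in nitrogen, or over maple sap medium (MSM), in which nitrogen is scarce. The media also differ in minerals and in sugar, which is glucose in BM and mainly sucrose in MSM. Each medium was sampled at 15, 120, 240 and 360 min with 3 temporally separate replicates, which gives 24 libraries. All of them came from 1 strain, the mat A strain FGSC2489, described as monokaryotic, whose macroconidia were harvested from Bird medium, washed, and kept at a constant temperature in constant white light. The times were set by the morphology of spores on BM, from fresh spores through polar growth and a doubled long axis to the first branch, so that a difference between the media and a difference in developmental timing cannot be told apart.

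Conidia are the asexual spores by which N. crassa disperses. They carry mRNA made while they formed on the parent mycelium, and on germination the spore resumes translation and growth while transcripts of the resting state give way to those of the growing hypha. Glutathione S-transferases, aldo/keto reductases and other oxidoreductases are among the enzymes that detoxify and handle redox stress in fungal cells, and formate dehydrogenase oxidizes formate to carbon dioxide.

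A level below is the value deposited for a gene at a time, relative to the lowest of its 4 times on that medium, which is set at 1. Levels therefore cannot be compared between genes or between media, and the 3 replicates were already combined in them. A change is the difference of log2 levels after the median level of all kept genes at each time was subtracted. This leaves the median gene itself with changes of 0.15, -0.16 and 0.22 in the 3 successive steps on BM and -0.25, 0.02 and 0.16 on MSM, so each change was also taken relative to the median change. A gene was kept where all 4 levels and their lower 95% bounds were above 0, which held for 8773 genes on BM and 8855 on MSM. A further 28 genes had a level at 15 min and were listed at 0 at 120 min on both media, and these do not enter the 105. In bulk RNA, fewer spores of a kind and less RNA per spore cannot be told apart, and a lower relative level can stand beside a rise of other transcripts.

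Spores were not sampled before inoculation, so storage of these transcripts in the resting spore was not measured. Of 5 classic conidium markers (con-6, con-8, con-10, con-13 and the hydrophobin gene eas), 0 were among the 105. All 5 were highest at 15 min on BM, and the fall to 120 min passed the cut there for con-13 (-2.34) and eas (-2.25). On MSM none of the 5 passed it, with changes of -0.46 for con-6, -0.58 for con-8, -0.51 for con-10, -0.42 for eas and 0.71 for con-13. The 105 are therefore described as the genes of the shared early fall, not by the name of the spore.

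From 15 to 120 min the change of the 105 genes had a median of -2.03 on BM, with a range from -4.99 to -1.51, and of -2.22 on MSM, with a range from -6.89 to -1.52. The cut was passed by 306 genes on BM (3.53% of those kept) and by 651 on MSM (7.5%), of which 201 passed it on BM alone and 546 on MSM alone. The members nearest the cut were NCU02028 at -1.51, NCU03052 at -1.52 and NCU09975 at -1.53 on the medium of the smaller fall, and the nearest genes left out were NCU02113, NCU04205 and NCU05983, all at -1.49. Relative to the median change, NCU02028 stood at -1.49 and NCU03052 at -1.27 on MSM. With levels as deposited the same cut was passed on both media by 151 genes. The deposited level was highest at 15 min in 104 of the 105 genes on BM (44% of all kept genes) and in 93 on MSM (36.7%). The cut itself favours such a peak, so these counts mostly restate the choice of the genes. Which medium showed the larger fall depended on the scale, since the fall was larger on MSM in 71 genes with stage medians subtracted, in 44 relative to the median change and in 26 with levels as deposited.

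**Figure D1:**
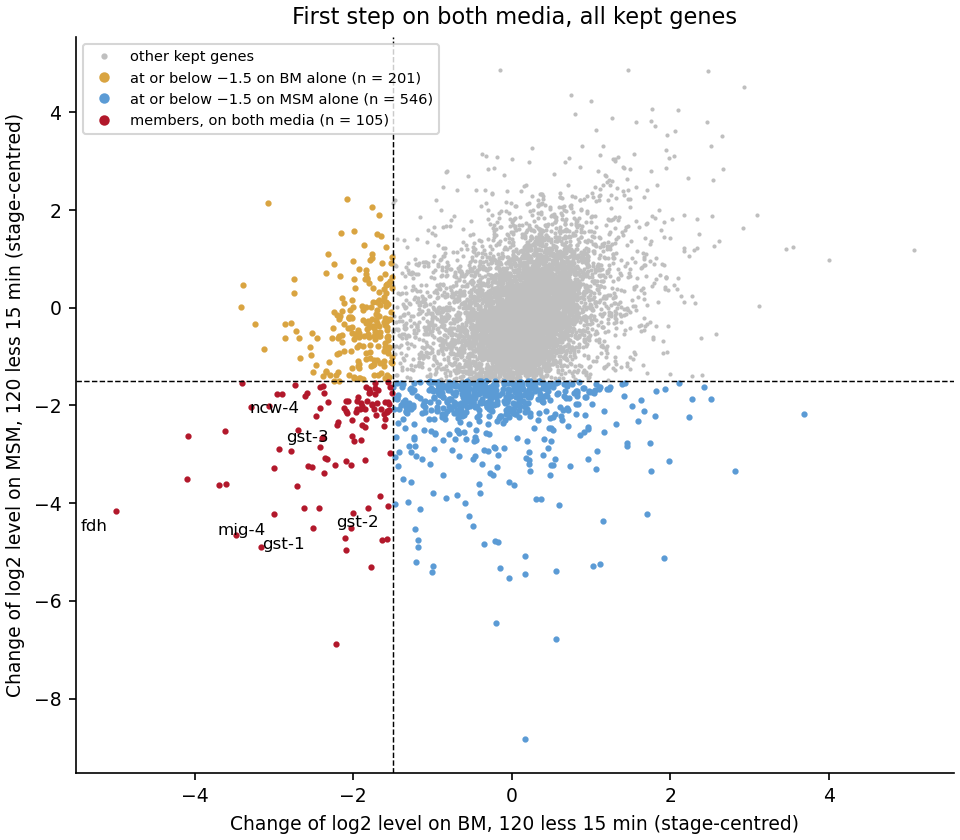
Change of the stage-centred log2 level from 15 to 120 min on BM (x axis) and MSM (y axis) for the 8676 kept genes, 1 point a gene, with dashed lines at the cut of -1.5. The 105 members fill the lower left corner, with fdh farthest left at -4.99 on BM, beside 201 genes past the cut on BM alone and 546 on MSM alone.

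The deepest shared early fall was that of fdh (NCU03813, chromosome V:2492005-2494322 in the NC12 assembly), the formate dehydrogenase gene. Its level on BM was 51.1 at 15 min, 1.12 at 120 min, 1.10 at 240 min and 1 at 360 min. On MSM the level was 14.6 at 15 min, 1 at 120 min, 3.98 at 240 min and 101 at 360 min, so that the gene lost early on both media ended above its starting level on MSM only. Its changes from 15 to 120 min were -4.99 on BM and -4.15 on MSM. It was the only member with a fall of at least 16-fold on both media, and 7 members fell by at least 8-fold on both, among them NCU02335, NCU06303, NCU08056 and NCU08060. NCU02335 went from 111 to 8.67, 1.19 and 1 on BM and from 28.4 to 1.17, 1 and 1.11 on MSM.

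All 4 glutathione S-transferase genes with a symbol, gst-1 to gst-4, were among the 105. Of the 10 names on the list of such genes, 4 were found in the reference. The list was chosen with earlier results of these data known, so this count is a description only. For gst-1 (NCU05780, VII:3803145-3804267) the level on BM was 68.9 at 15 min, 8.46 at 120 min, 1.23 at 240 min and 1 at 360 min, and on MSM it was 18.7, 1, 2.62 and 3.98. For gst-2 (NCU04109, V:4869929-4871716) the level was 101, 23.8, 1.93 and 1 on BM and 35.3, 1.61, 1 and 1.65 on MSM. Both came within 2-fold of their lowest level by 240 min on BM and by 120 min on MSM. For gst-3 (NCU01320, V:3650198-3651283) the level was 13.7, 2.09, 1 and 1.30 on BM and 4.13, 1, 2.59 and 3.16 on MSM. For gst-4 (NCU10521, VII:836334-837892) it was 33.5, 4.53, 1 and 1.54 on BM and 8.55, 1, 3.23 and 3.85 on MSM. The 4 genes lie on chromosomes V and VII. From 120 to 240 min gst-1, gst-3 and gst-4 were higher on MSM and lower on BM, whereas gst-2 was lower on both.

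Of 12 genes with a mig name in the reference, 9 were members (ncw-4, which has mig-1 as a second name, mig-2, mig-4 to mig-9 and mig-11). This group was picked after its values were seen and is a description only. ncw-4 encodes a non-anchored cell wall protein, mig-5 carries an aldo/keto reductase annotation and mig-11 one of isocitrate lyase. For mig-2 (NCU07452, I:576062-577864) the level was 161 at 15 min, 18.3 at 120 min, 1.70 at 240 min and 1 at 360 min on BM, and 34.0, 2.40, 1 and 1.32 on MSM. For mig-4 (NCU09040, VII:421275-422778) it was 93.6, 8.20, 1.67 and 1 on BM and 15.4, 1, 1.15 and 3.44 on MSM. For mig-5 it was 41.6, 5.75, 1 and 1.15 on BM and 7.01, 1, 1.35 and 2.40 on MSM. The remaining 6 covered a wider span of early falls, from -1.84 for mig-6 to -2.58 for ncw-4 on BM and from -1.62 for mig-6 to -4.72 for mig-7 on MSM. Outside the 105 stood mig-3 (-1.39 on BM, -0.77 on MSM), mig-10 (-0.45 and -2.71) and mig-12 (-0.12 and 0.31).

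**Figure D2:**
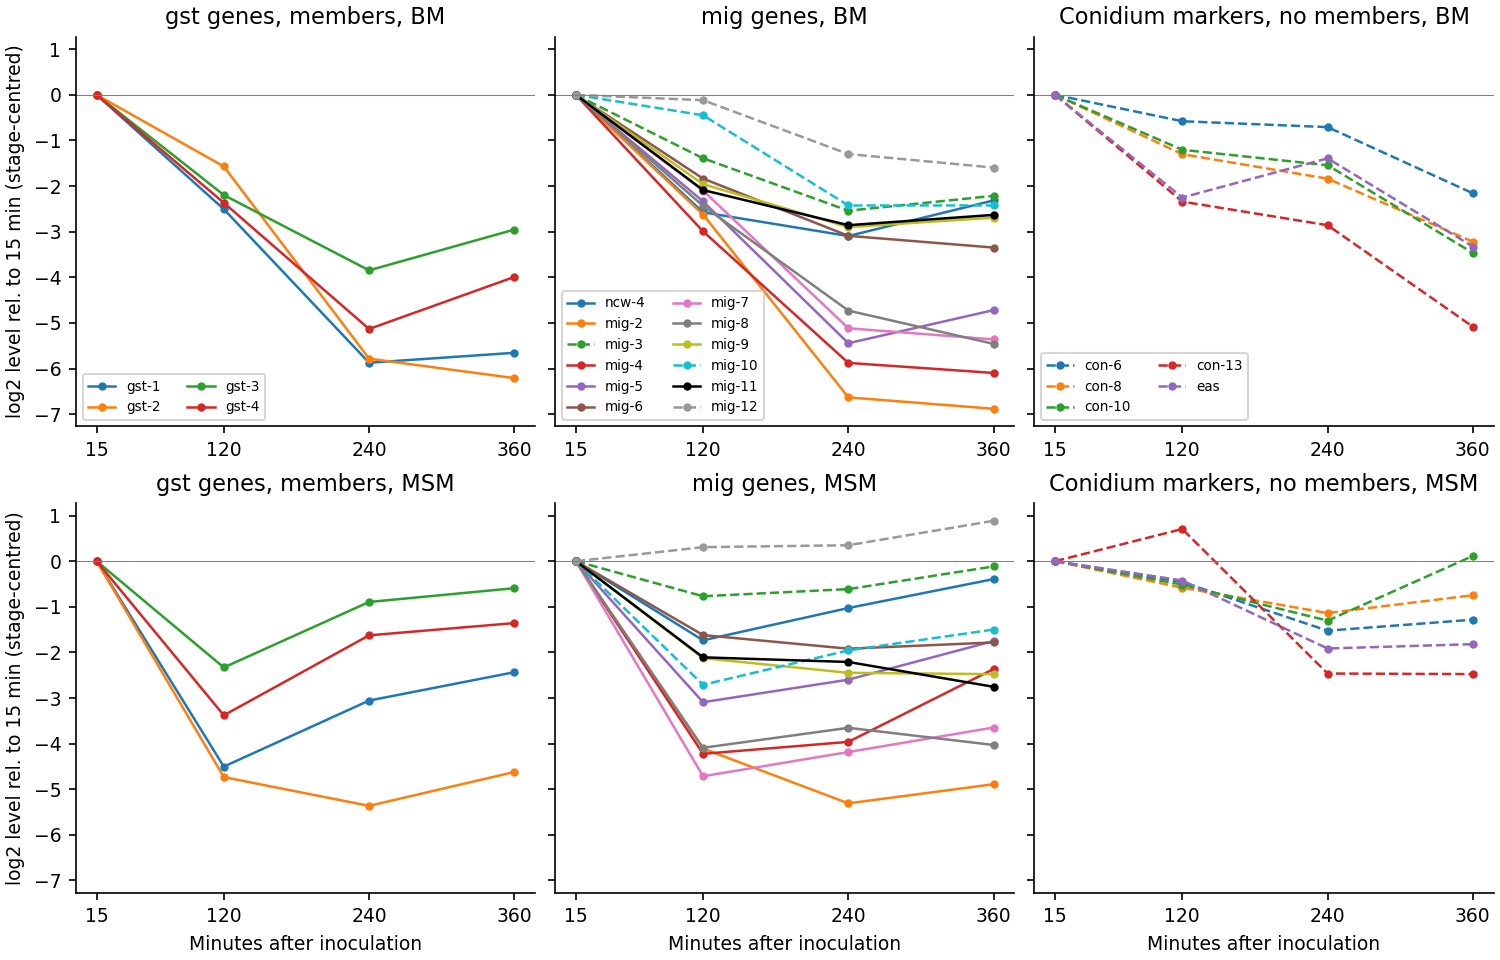
Stage-centred log2 level relative to 15 min at each sampling time on BM (top) and MSM (bottom) for the gst genes, the genes with a mig name and the conidium markers, 1 line a gene, solid for members and dashed for others. The gst genes and most mig genes reach their lowest values at 240 min or later on BM and at 120 or 240 min on MSM, whereas the markers change from 15 to 120 min on MSM by -0.58 at the lowest.

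A symbol was given for 19 of the 105, and an annotation by orthologous group was at hand for 10 of the 17 members in the part of the annotation that was used, while the rest were not looked up. Among these 10 were the aldo/keto reductases NCU01233 and mig-5 and the zinc-binding oxidoreductases NCU00973 and NCU01419. NCU00973 had the deepest fall of all 105 on MSM (-6.89), from a level of 136 at 15 min to 1.40 at 120 min, while on BM it passed from 106 to 16.01, 1.80 and 1. The others were annotated as isocitrate lyase (mig-11), a predicted acyl-CoA dehydrogenase of fatty acid breakdown (acd-3), an ABC transporter (NCU00290), a Nudix NADH pyrophosphatase (NCU00293), a predicted ATPase (NCU01084) and a protein with a NifU-like domain (NCU01779). These 6 fell by 1.57 to 2.09 on BM and by 1.65 to 4.50 on MSM. Such an annotation gives the group a protein belongs to, and the enzyme each gene encodes was not checked.

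The other members with a symbol were ccg-9, app, T and stk-36. ccg-9, a clock-controlled gene that encodes a trehalose synthase, had levels of 11.1, 2.17, 1.78 and 1 on BM and 3.98, 1, 1.08 and 1.46 on MSM. app, which encodes the abundant perithecial protein, had levels of 68.7, 13.3, 6.47 and 1 on BM and 57.3, 16.7, 5.46 and 1 on MSM, a steady decline on both. T, the tyrosinase gene of melanin synthesis, and stk-36, a serine/threonine kinase gene, had low precision. Their log2 levels had SEs of up to 0.54 and 0.89, and neither was called in the last step on either medium.

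From 120 to 240 min the shared fall split by medium. On BM the 105 genes went on down, with a median change of -1.57, and 73 of them fell at least 2-fold (14.9% of all kept genes did) while 2 rose that far (7.19%). On MSM their median change was -0.09, with 16 lower (6.42%) and 11 higher (7.22%) by at least 2-fold. In 90 of the 105 the change was lower on BM than on MSM, and this count was 89 relative to the median change and 81 with levels as deposited. The median change of all kept genes was also lower on BM, at -0.16 against 0.02 on MSM. The matching count over all kept genes was not taken. The 120 min level also entered the choice of the genes, so this step too is a description. gst-2 dropped by 4.21 on BM, mig-2 by 4.01 and NCU00973 by 3.74. The 11 genes that turned upward on MSM included fdh (2.05), gst-1 (1.45), gst-3 (1.44), gst-4 (1.75) and NCU01419 (1.59). The 2 genes higher on BM were NCU03370 and NCU00229, and the second had an SE of up to 1.21.

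**Figure D3:**
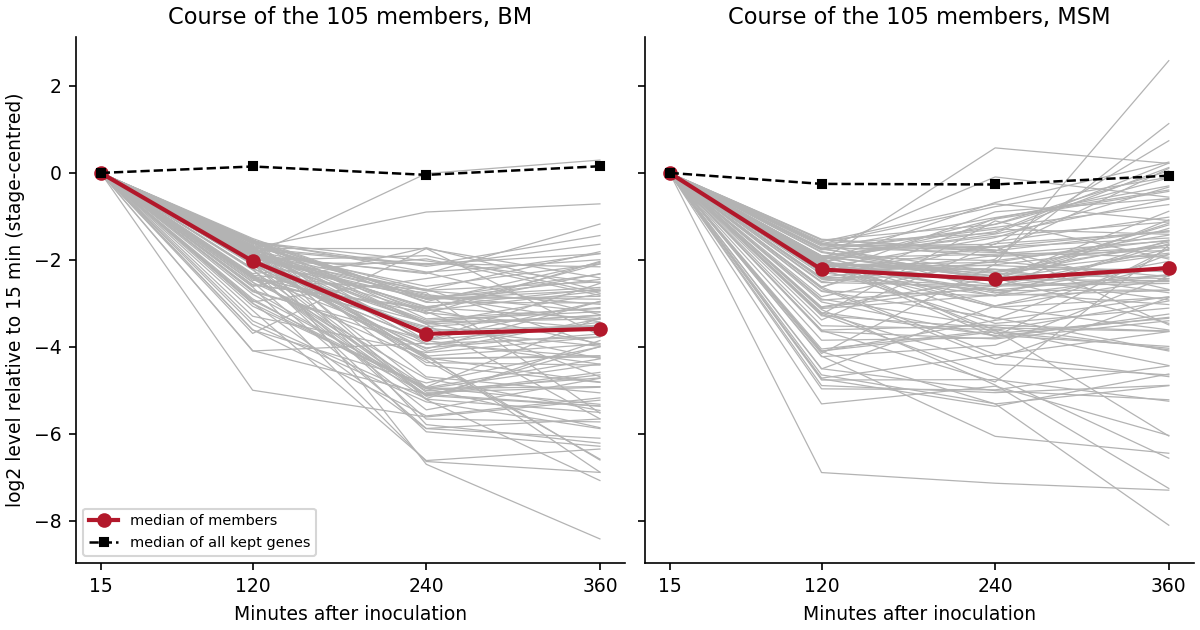
Stage-centred log2 level relative to 15 min against minutes after inoculation on BM (left) and MSM (right), 1 grey line for each of the 105 members, with the median of the members in red and that of the 8676 kept genes in dashed black. The red line falls in both of the first steps on BM, by medians of -2.03 and -1.57, whereas on MSM its change in the second step is -0.09.

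The change from 240 to 360 min was not used in the cut. The filter for kept genes did require levels and lower bounds above 0 at these times too. Genes that fell to 0 by then could therefore not be members. The change was tested for each gene, by a two-sided z test with Bonferroni adjustment over the 8676 genes at 0.01. On BM 35 of the 105 were higher at 360 min (53.6% of all kept genes were) and 19 were lower (11.3%), around a median change of 0.12. Relative to the median change 22 were higher (31.9%) and 26 lower (27.7%), and both ways of centring agreed on 22 and 19. On MSM 51 were higher (46.6%) and 17 lower (25.6%), with a median change of 0.36. Relative to the median change these were 45 (35.3%) and 23 (34.8%), and 45 and 17 were called under both. With SEs multiplied by 3, 17 higher (31.7%) and 9 lower (4.28%) calls were left on BM and 34 (29.9%) and 6 (16.6%) on MSM. The error behind these calls comes from the deposited bounds, and spread among replicates that those bounds leave out would make it too small.

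Both media shared 14 rises (16.5% of all kept genes) and 6 falls (5.45%) that were called under both centrings. With levels as deposited 2 of the 14, NCU01419 (-0.010) and NCU09012 (-0.11), were below 0 on BM, and the BM calls of acd-3 (0.17) and mig-5 (0.21) were lost. Among the rises were gst-3, with a change of 0.89 ± 0.026 (SE) on BM and 0.30 ± 0.011 on MSM, and gst-4, with 1.14 ± 0.033 and 0.27 ± 0.016. acd-3 rose by 0.69 ± 0.046 and 0.46 ± 0.019, and ncw-4 by 0.78 ± 0.0097 and 0.63 ± 0.0046. NCU03112 rose by 1.21 ± 0.019 and 1.57 ± 0.016 and NCU03358 by 1.33 ± 0.050 and 1.07 ± 0.022. The largest rise on BM was that of NCU06080, at 1.60 ± 0.045, whose change on MSM was 0.23 ± 0.045. The 6 shared falls were those of app, mig-8, NCU05763, NCU07449, NCU08720 and NCU08856. With SEs multiplied by 3 the calls of NCU05763 and NCU08856 were lost on both media and that of mig-8 on MSM. Those of app and NCU07449 were kept on both. app fell by 2.17 ± 0.090 on BM and by 2.43 ± 0.086 on MSM. Its fall differed between the media by -0.26 ± 0.13, which was not called, with an adjusted p of 1.

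app, NCU05763 and NCU07449 were the 3 members that fell at least 2-fold in every step on both media. The cut fixed the first of these steps, and the matching count over all kept genes was not taken. NCU07449 passed from 161 through 26.3 and 9.27 to 1 on BM and from 132 through 18.2 and 5.26 to 1 on MSM. NCU05763 passed from 130.5 through 15.9 and 6.95 to 1 on BM and from 81.7 through 10.4 and 3.68 to 1 on MSM. NCU08856 had the lowest change from 15 to 360 min on BM among the 81 members with every SE under 0.25 (-7.07), from 184 through 24.6 and 5.20 to 1, but on MSM it passed from 7.06 through 2.82 and 1.23 to 1. Its last change of -1.86 ± 0.18 on BM and -0.28 ± 0.041 on MSM differed by 1.58 ± 0.19.

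The change from 240 to 360 min on MSM less that on BM was called higher in 32 of the 105 (23.9% of all kept genes) and lower in 25 (38.4%). Relative to the median change the counts were 35 (27%) and 23 (34.7%), with 32 and 23 called under both, but with levels as deposited they were 51 (55.8%) and 6 (15.8%). The largest called difference was that of fdh, which rose by 4.67 ± 0.024 on MSM, against 0.38 ± 0.078 on BM, a value that was not called relative to the median change and is negative with levels as deposited. The media differed for fdh by 4.29 ± 0.082. The aldo/keto reductase gene NCU01233 fell on BM by 0.37 ± 0.059 and rose on MSM by 3.12 ± 0.025, a difference of 3.48 ± 0.064. Its level had been 16.4, 2.13, 1.85 and 1 on BM and was 5.91, 1, 1.74 and 14.9 on MSM. NCU05953, with wide bounds on BM, differed by 2.78 ± 0.52, which was called under both centrings but not with SEs multiplied by 3.

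Calls with opposite signs on the media were made for 17 of the 105 (18.6% of all kept genes), and 14 of these held relative to the median change. Such calls were no more frequent among the members than among all kept genes. Shares over all kept genes were not taken for the 14 or for each direction. In 11 of the 17 the level fell on BM and rose on MSM, and the signs of all 11 were the same with levels as deposited. The call for mig-6 on MSM was lost relative to the median change. With SEs multiplied by 3 the BM calls of mig-4, mig-2, NCU05619 and NCU01233 were lost, while those of gst-2, NCU06603 and mig-6 were kept. mig-4 changed by -0.22 ± 0.027 on BM and by 1.60 ± 0.019 on MSM, gst-2 by -0.43 ± 0.025 and 0.74 ± 0.021, and mig-2 by -0.25 ± 0.023 and 0.42 ± 0.016. NCU05619 changed by -0.84 ± 0.089 and 1.28 ± 0.062, and NCU06603 by -0.83 ± 0.017 and 0.60 ± 0.015. In the other 6 genes the sign was positive on BM and negative on MSM, and with levels as deposited 0 of these 6 were positive on BM. For them only the fall on MSM holds on every scale, for example -0.55 ± 0.028 for NCU08900 and -0.54 ± 0.020 for mig-11.

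**Figure D4:**
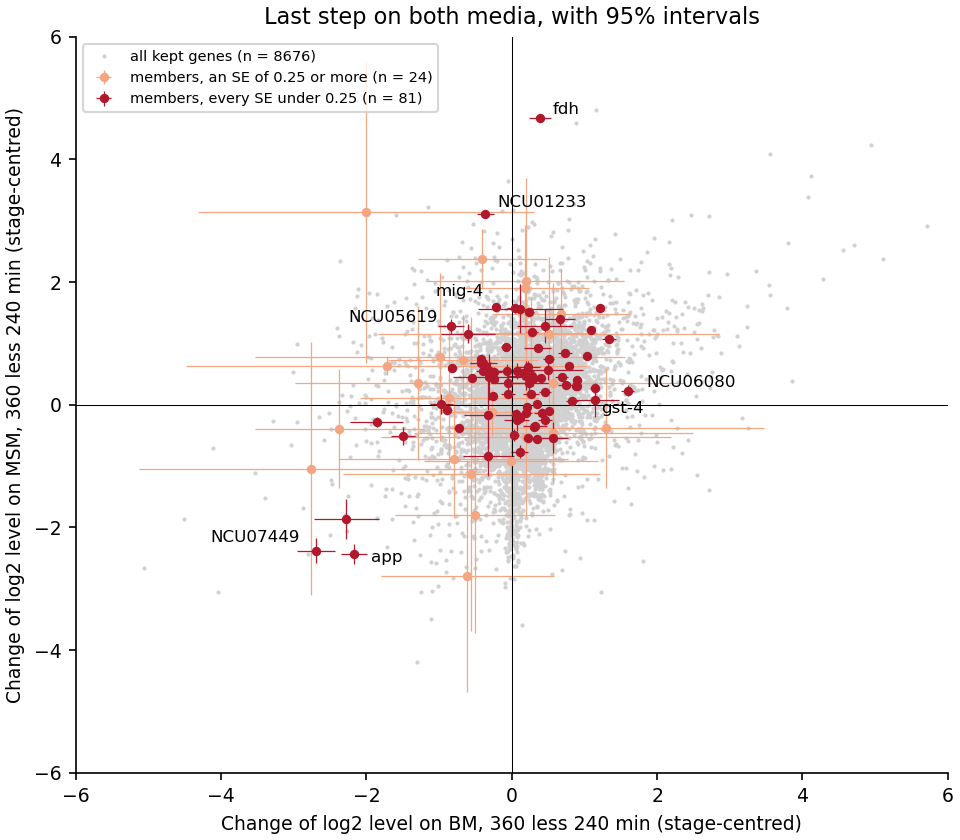
Change of the stage-centred log2 level from 240 to 360 min on BM (x axis) and MSM (y axis), with 95% intervals for the 105 members, dark red where every SE was under 0.25 (81 genes) and pale where it was not (24 genes), over all 8676 kept genes in grey. fdh and NCU01233 lie at 4.67 and 3.12 on the MSM axis, and app and NCU07449 lie low on both axes.

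By 360 min the members stood far below their 15 min level on BM and less so on MSM. The median of the change from 15 to 360 min was -3.58 on BM, where 103 genes were lower by at least 2-fold (17.2% of all kept genes), and -2.19 on MSM, where 85 were lower (27.7%). In 87 of the 105 the change was lower on BM than on MSM, a count of 92 relative to the median change and 98 with levels as deposited. On BM 98 genes were further down at 360 than at 120 min, on MSM 41. These counts were not taken over all kept genes, whose median change from 15 to 360 min was 0.15 on BM and -0.06 on MSM. With levels as deposited that median was -0.30 on BM and 0.14 on MSM, so it too was lower on BM. At 360 min 18 members were at least 16-fold below 15 min on both media, among them gst-2, mig-2, mig-8 and app, and 4 were at least 64-fold below (NCU00973, NCU04471, NCU05763 and NCU07449). This contrast shares its 15 min level with the choice of the genes and has no test.

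At 360 min 9 members were above their 15 min level on MSM, and 1 of these, NCU03370, was so on BM as well. Of all 8676 kept genes, 4188 were above their 15 min level on MSM and 4840 on BM. fdh stood 2.58 above it on MSM, NCU01233 stood 1.13 above and NCU05953 stood 0.74 above, while the remaining 6 (T, NCU02579, NCU03112, NCU03370, NCU03749 and NCU04815) were at most 0.25 above. On BM the changes of fdh and NCU01233 from 15 to 360 min were -5.22 and -3.58. The level of NCU03370 dipped at 120 min and returned, at 5.31, 1, 5.52 and 4.77 on BM and 3.31, 1, 5.75 and 4.44 on MSM.

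The later steps were also described for the genes past the cut on 1 medium alone. The 201 genes of the BM fall had a median change of 0.37 from 120 to 240 min on BM and ended at -1.26 on BM and 0.63 on MSM relative to 15 min. The 546 genes of the MSM fall had a median change of -1.43 from 120 to 240 min on BM, near the -1.57 of the 105, and ended at -1.80 on BM and at -2.15 on MSM, near the -2.19 of the 105. From 240 to 360 min on MSM 62.2% of the first group and 23.6% of the second were called higher, against 48.6% of the 105. Since each group was chosen on its first step, these values are descriptions. Across the 105 members the changes on the media from 240 to 360 min had a Pearson correlation of 0.29 (all 8676 genes, 0.27), and those from 120 to 240 min one of 0.018 (0.34). Across the 81 members with every SE under 0.25 these were 0.40 (7765 genes under the same filter, 0.29) and 0.14 (0.39). Genes are not independent replicates, and the points share their libraries.

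**Figure D5:**
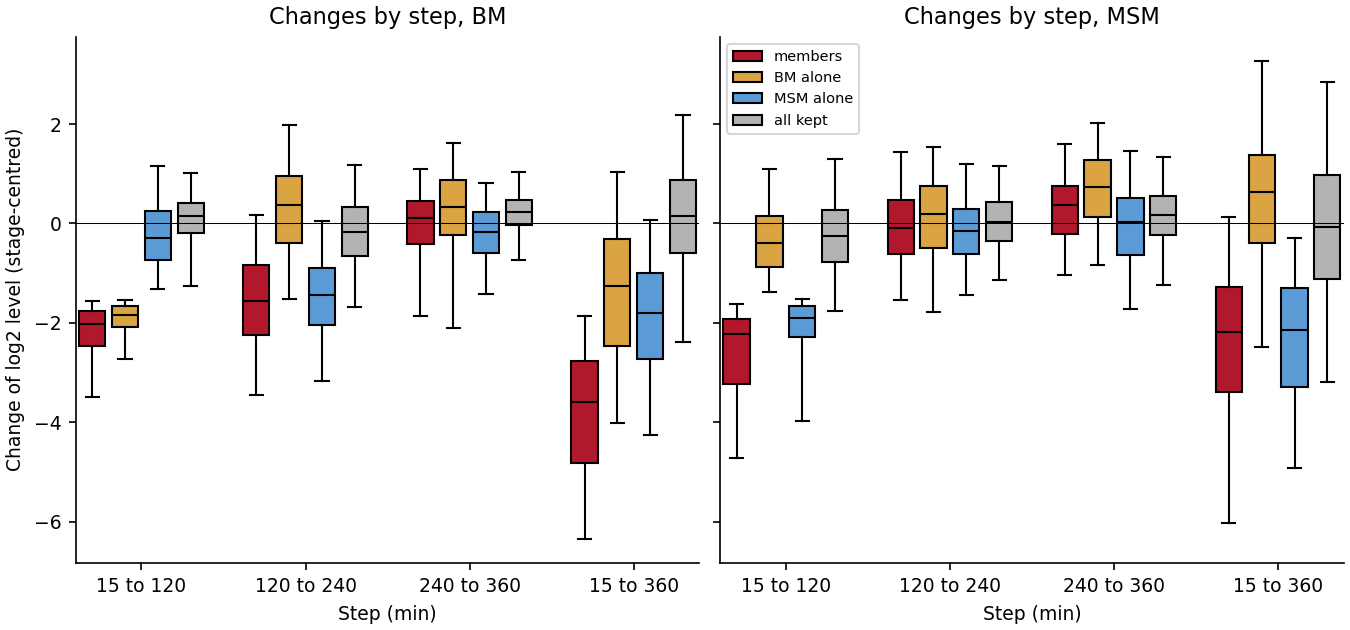
Change of the stage-centred log2 level in each step and over the whole course on BM (left) and MSM (right) for the 105 members, the genes past the cut on BM alone or MSM alone and all kept genes. Boxes span the quartiles with the median as a line and whiskers run from the 5th to the 95th percentile, and the members lie lowest over the whole course on BM, with a median of -3.58.

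The gene lists, made of genes with known symbols, held few members beyond the gst genes. Members are 1.21% of all kept genes, a share at which lists this short would hold few or none. The low counts are therefore not a result about the listed pathways. The list of conidiation and clock-controlled genes had 1 member of 15 (ccg-9) and storage carbohydrate genes had 1 of 5 (ccg-9 again). The alternative respiration list had 1 of 6, the formate dehydrogenase gene fdh, and no alternative oxidase or NADH dehydrogenase gene on it was a member. None was found among 13 conidiation regulators, 16 light response and carotenoid genes, 24 fox, pex and acu genes of fatty acid oxidation, peroxisomes and the glyoxylate cycle (a list without acd-3 and mig-11), 10 oxidative stress genes, 9 heat shock and chaperone genes, 12 nitrogen use genes and 7 cytosolic ribosomal protein genes. For the gst genes the last step brought 4 rises of 4 on MSM under both centrings, where 46.6% and 35.3% of all kept genes were higher, and on BM 2 rises (gst-3 and gst-4, against 53.6% and 31.9%) and 1 fall (gst-2, against 11.3% and 27.7%). The difference between the media was called for gst-2 (1.17 ± 0.033), gst-3 (-0.59 ± 0.028) and gst-4 (-0.87 ± 0.036), although with levels as deposited that of gst-3 was -0.089 and its call was lost. For gst-1 it was 0.40 ± 0.095 with an adjusted p of 0.172. Relative to the median change that p was 0.00946.

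The members were spread over all 7 chromosomes. Chromosome VII held 17 of them, or 16.2% against 10.5% of kept genes, and chromosome IV held 10, or 9.52% against 15.1%. The longest run of neighbouring members was of 3 genes on chromosome II, NCU03372 (934015-936042), NCU03370 (939744-941575) and mig-8 (942066-943607), and only NCU05153 and NCU12132 on chromosome VI also stood side by side. Within the run the courses differed. After the shared early fall, the change from 120 to 240 min on BM was -1.33 for NCU03372, 1.88 for NCU03370 and -2.30 for mig-8. The members had a median gene length of 1657 bp, against 2274 bp for all kept genes, 1774 bp for genes past the cut on BM alone and 1827.5 bp for those on MSM alone.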

How the data were processed

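After trimming, the authors placed reads on the OR74A genome with TopHat2 2.0.12, counted unique alignments in exons by HTSeq 0.6.1p1 and merged replicates in LOX. The deposited values are ratios: the level of a gene at each time relative to its lowest time on that medium, with distances to the 95% bounds. Columns were assigned to times by the numbers in their names. Depth per library is not part of these values, and the bounds give their precision.

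The SE of a log2 level was the log2 width of its interval divided by that of a standard normal 95% interval, and times were taken as independent. The step from 240 to 360 min was tested on BM, on MSM and as their difference, in 3 comparisons. The members and gene lists were chosen with earlier results of these data known.

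Genes named were every member with a symbol, the deepest shared falls, the strongest called last changes and opposite calls, the highest and lowest at 360 min, those next to the cut, the longest run of neighbours and those with an annotation by orthologous group; other names were added after values were seen. Of the listed genes, 9729 were found in the RefSeq gene table of the NC12 assembly. Alternatives were levels as deposited, Benjamini-Hochberg adjustment at 0.05, SEs multiplied by 3, a 2-fold minimum, an SE filter at 0.25 and cuts of -1 and -2, with centring on the median change added after seeing the data. Work was done in Python 3.11.15 (SciPy 1.17.1, pandas 2.3.3, numpy 2.4.6) and figures in matplotlib 3.10.9. Promoter and protein sequences were not analysed here.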

Additional observations from a re-analysis of the deposited data

Results flagged for a closer look

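The change from 240 to 360 min differed between the media, by a test of the difference itself, in 32 members that were higher on MSM (23.9% of all kept genes) and 25 that were lower (38.4%). Among genes called with opposite signs, the MSM change minus the BM change was 3.48 for NCU01233, 2.12 for NCU05619, 1.82 for mig-4 and 1.43 for NCU06603, all of which fell on BM and rose on MSM. None of these BM falls reached 2-fold, and with SEs multiplied by 3 only that of NCU06603 was still called. The MSM change minus the BM change was -0.90 for NCU08900, -0.77 for mig-11, -0.72 for NCU00847 and -0.67 for NCU03370, whose sign on BM was positive only after centring. The BM change of mig-11, at 0.23, was not called relative to the median change.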

How the results depend on the processing

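No paired analysis was possible because the deposited values combine the 3 replicates, and no replicate could be left out for the same reason. Counts below are higher and lower calls of the members from 240 to 360 min, with the share of all kept genes in parentheses. With levels as deposited the cut would choose 151 genes. For the 105 members BM then had 11 (11.1%) and 44 (58.1%) and the difference between the media 51 (55.8%) and 6 (15.8%). SEs multiplied by 3 left BM with 17 (31.7%) and 9 (4.28%), MSM with 6 lower (16.6%) and the difference with 17 (9.82%) and 10 (21.9%). A 2-fold minimum left 7 (4.39%) and 5 (1.26%) on BM, 15 (8.26%) and 3 (6.24%) on MSM and 14 (5.07%) and 2 (9.28%) for the difference. A cut of -1 chose 253 genes with 88 and 42, 121 and 44, and 76 and 59. A cut of -2 chose 44 genes with 16 and 8, 19 and 10, and 13 and 11, beside 53.6% and 11.3% on BM, 46.6% and 25.6% on MSM and 23.9% and 38.4% for the difference at every cut. Centring on the median change gave 22 higher on BM (31.9%), and with Benjamini-Hochberg adjustment or the SE filter, which left 81 members, all 6 counts were within 1.5 times. The median change from 120 to 240 min on BM was -0.98 as deposited, -1.67 with the SE filter, -1.19 and -1.90 at the cuts of -1 and -2 and -1.40 relative to the median change. In that order the BM medians from 15 to 360 min came to -4.03, -3.77, -2.95, -4.61 and -3.74, those of MSM to -1.98, -2.27, -1.80, -3.01 and -2.12. With levels as deposited 5 of 73 results for single genes reversed, the BM changes of NCU08900 (-0.17), NCU03370 (-0.21) and NCU00847 (-0.059) and the differences between media of ncw-4 (0.36) and mig-9 (0.27), whose sign rests on the stage medians subtracted, and 46 fell under the 2-fold minimum. With SEs multiplied by 3, 22 of the 73 results lost their call. The SEs come from the bounds, so 24 members with an SE of 0.25 or more could show only large changes.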
